A study of Danio rerio with 9 samples.

Results

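Regulators of the cell division cycle that have been linked to the circadian clock were followed across WT and clock-mutant zebrafish larvae in darkness and light. The set holds 6 genes, wee1, cdkn1a, cdkn1bb, cdkn1d, ccnd1 and cdc25b, and its members were taken as every array probe, other than control probes, whose accession belongs to one of them. Probes were paired through RefSeq accessions for 4 of the 6 genes, which gave 12 probes out of 43603 on the array. They were 4 probes for cdkn1bb, 1 for cdkn1d, 4 for ccnd1 and 3 for cdc25b. For wee1 and cdkn1a no probe was paired, and these 2 genes were not analysed here. The whole array paired 26094 probes with 13443 genes.

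Cells pass from G1 into DNA replication when cyclin-dependent kinases (CDKs), bound to cyclins, release E2F transcription factors from the retinoblastoma protein. CDK inhibitors of the Cip/Kip family hold these kinases back, and Cdc25 phosphatases remove the inhibitory phosphates that Wee1 places on the mitotic kinase. In several vertebrates the clock gates this cycle, with Wee1 and p21 as known clock-linked brakes, and in zebrafish larvae the timing of DNA replication follows the light cycle through p20 (cdkn1d) and p21 (cdkn1a).

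Whole larvae at 6 dpf gave the total RNA, and each of 9 conditions was read on 1 one-colour Agilent array. The genotypes were WT, DKO (zPer2 and zCry1a knocked out with TALENs) and TKO (the same 2 genes plus zCry2a, disrupted with CRISPR/Cas9), and all larvae had been raised in constant darkness. For each genotype, larvae either stayed in darkness, received 3-h light or received 12-h light. They were collected 12 h after light onset, as stated for DKO larvae, so a 3-h group had returned to darkness by then. The number of larvae behind each RNA was not given in the sources used here.

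No condition had a second array, so every test across the 9 arrays took the other genotypes or lightings as its replicates. Each genotype lay on its own slide, and genotype and slide cannot be told apart. Each slide held darkness in position 1, then 3-h light in position 2, and 12-h light in position 3 or 4, and lighting and position cannot be told apart either. Between 85.9% and 89.8% of spots were well above background, and no spot was saturated. The TKO dark array stood apart, with a median correlation of 0.979 with the other arrays over 36497 probes, against 0.988 to 0.993 for the other 8 arrays. The members' called differences and many of the list counts are therefore also given without it. TKO larvae then have no dark array, so differences of light from darkness rest on the dark arrays of WT and DKO larvae. The array probes of the knocked-out genes are of unknown position relative to the mutations and do not check the labels. Log2 differences from WT of the cry1a probes were -1.27 to -0.21 in DKO larvae and -1.42 to -0.0095 in TKO larvae. Those of cry3a, the annotated name of zCry2a, were -0.99 to -0.72 in TKO larvae. The per2 probes differed from WT by -0.53 to 1.40 over the mutant arrays, and most of these differences were above 0.

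Levels are given as log2 signal relative to the 75th percentile of each array, so that 0 is the signal at that percentile. A step of 1 is a doubling. All 12 probes were well above background on all 9 arrays. Levels of different probes are not comparable, since each binds its target with its own strength. The spread between repeated spots of one probe, over 31 probes with 5 spots each that were well above background throughout, was 0.107 on this scale, or 0.151 for a ratio of 2 arrays. It measures spotting and scanning within an array and leaves out differences between groups of larvae. How many of all probes separate groups of arrays without overlap was not counted. Separations of member probes are therefore given below without that share.

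cdkn1d, the zebrafish Cip/Kip inhibitor p20, had the widest range of the 12 probes. In WT larvae its level was -2.85 in darkness, -2.04 after 3-h light and -1.61 after 12-h light. In DKO larvae it was -3.11, -2.23 and -1.89 in the same order. In TKO larvae it was -2.27, -2.46 and -2.33, so that the light arrays were not above the dark one. The order of the 9 arrays from low to high was DKO dark, WT dark, TKO 3-h light, TKO 12-h light, TKO dark, DKO 3-h light, WT 3-h light, DKO 12-h light and WT 12-h light. Only 4 of the 8 steps between neighbours were larger than the spot spread of 0.151, those between DKO dark and WT dark, WT dark and TKO 3-h light, DKO 3-h light and WT 3-h light, and DKO 12-h light and WT 12-h light.

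**Figure D1:**
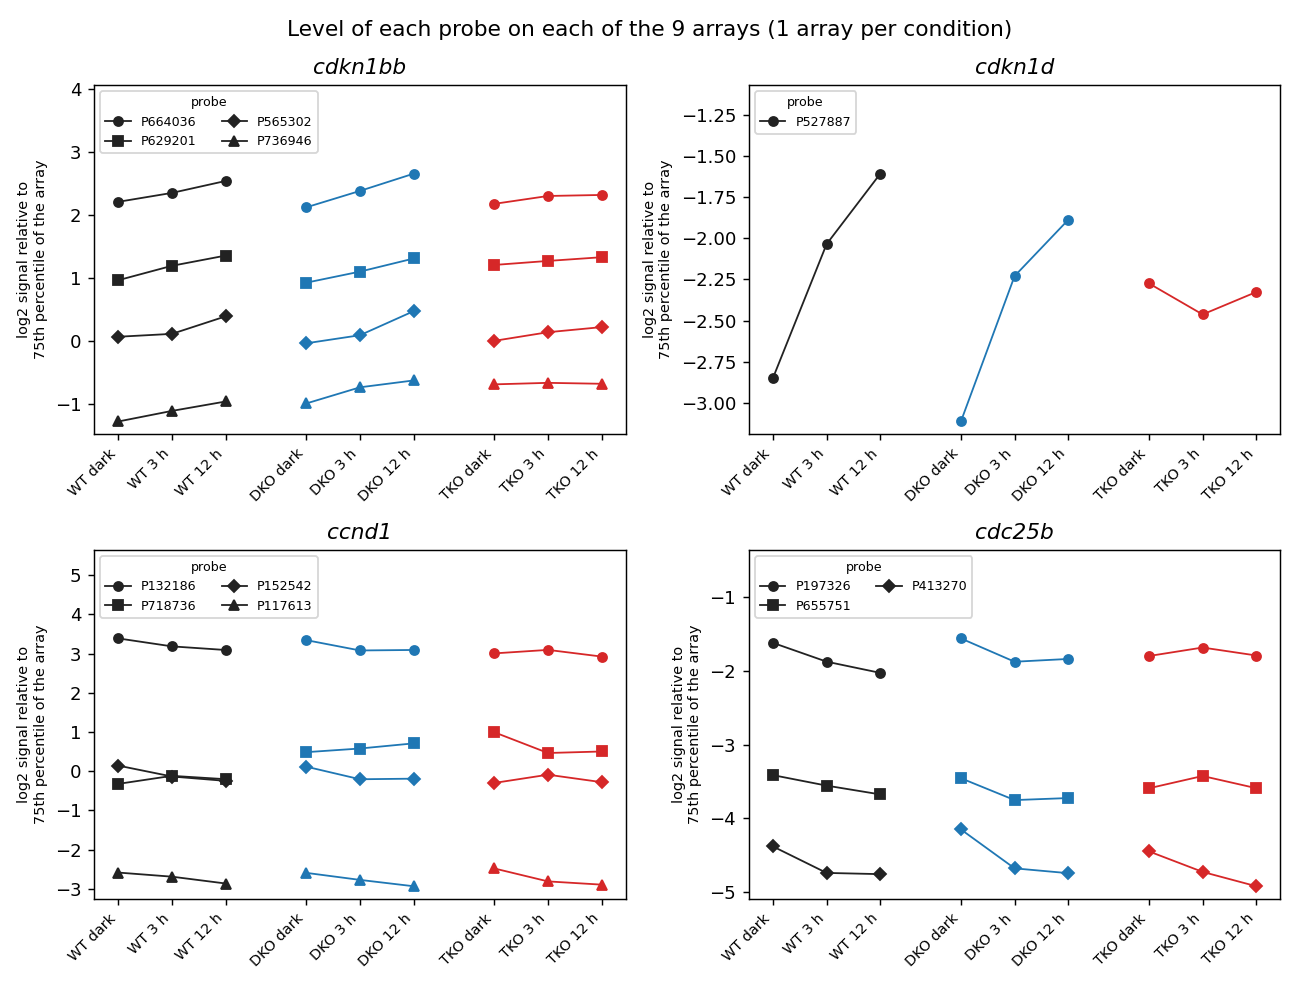
Log2 signal of each probe relative to the 75th percentile of its array (y axis) on the 9 arrays (x axis), with 1 point per array and lines joining the arrays of a genotype (black WT, blue DKO, red TKO). The cdkn1d probe climbed from -2.85 to -1.61 in WT and from -3.11 to -1.89 in DKO larvae, and stayed between -2.46 and -2.27 in TKO larvae.

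As a ratio of single arrays, cdkn1d of WT larvae exceeded its dark level 1.76-fold after 3-h light and 2.36-fold after 12-h light. In DKO larvae the ratios were 1.84-fold and 2.34-fold. In TKO larvae the log2 ratios were -0.19 and -0.05, the first larger in size than the spot spread of 0.151 and the second within it. With the DKO dark array as the reference, the log2 ratios of the lit TKO arrays were 0.65 (3-h light) and 0.79 (12-h light).

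A 2-fold change was reached by 1 of the 12 probes, cdkn1d, at 12-h light in WT larvae, where 2.29% of all probes well above background did so, and by 1 of 12, again cdkn1d, at 12-h light in DKO larvae, against 2.9%. None of the 12 reached it at 3-h light in WT larvae, against 1.31% of all probes, or at 3-h light in DKO larvae, against 0.825%. None did so in TKO larvae either, against 6.23% of all probes at 3-h light and 7.9% at 12-h light. These single-array ratios carry no test.

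**Figure D2:**
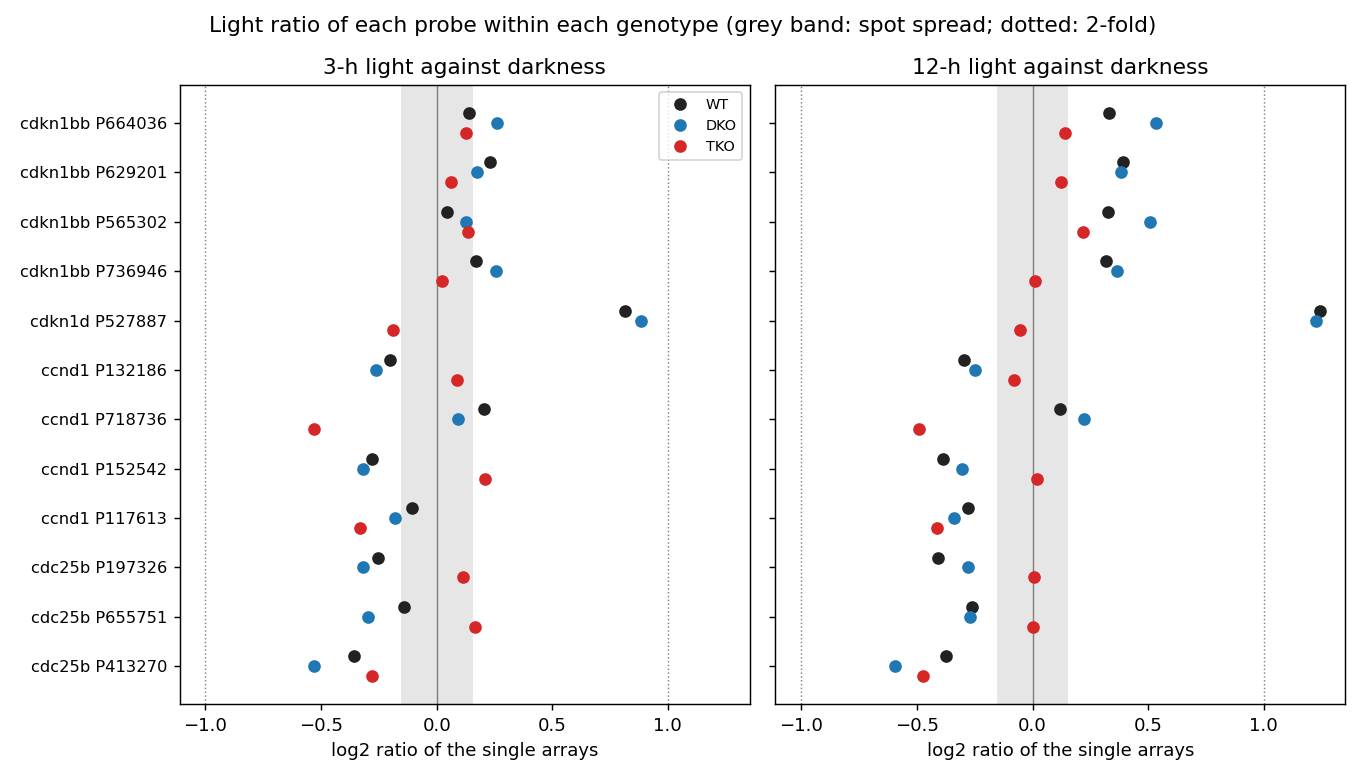
Log2 ratio of lit to dark array within each genotype (x axis) for the 12 probes (y axis), at 3-h light (left) and 12-h light (right), with 1 point per genotype. The grey band marks the spot spread of 0.151 to either side of 0 and the dotted lines a 2-fold change. Only the cdkn1d probe of WT and DKO larvae at 12-h light lies past a dotted line.

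Over all 3 genotypes, cdkn1d was higher by 0.80 ± 0.25 (log2, SE, limma over 9 arrays) at 12-h light than in darkness, which missed the threshold (adjusted p = 0.0588, limma). At 3-h light the difference was 0.50 ± 0.25 (adjusted p = 0.199, limma). Without the TKO dark array, darkness was represented by WT and DKO larvae only. In that fit cdkn1d rose by 1.19 ± 0.083 at 12-h light (adjusted p = 0.00275, limma) and by 0.89 ± 0.083 at 3-h light (adjusted p = 0.0152, limma). The light response of TKO larvae was lower than that of WT larvae by a log2 difference of -1.15, with a 95% interval from -1.93 to -0.36, and did not pass the test across all probes (adjusted p = 0.13, limma). For DKO against WT larvae this difference was 0.026, with an interval from -0.76 to 0.81. The light response here is the mean of 3-h and 12-h light minus the single dark array of the genotype. Both intervals rest on the spread between 3-h and 12-h light within genotypes and leave out the spread between dark arrays.

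cdkn1bb codes for an inhibitor of the p27 type, which binds cyclin-CDK complexes in G1. All 4 of its probes were higher in all 6 light arrays than in the dark array of the same genotype. In TKO larvae these log2 ratios were only 0.024 to 0.137 at 3-h light and 0.009 to 0.218 at 12-h light. The median ratio over 36497 probes was 0.154 and 0.145 on the same arrays, and 0.040 to 0.070 in WT and DKO larvae. Most of the TKO ratios were thus below that of the typical probe. Probe A_15_P664036 had a level of 2.21 (darkness), 2.35 (3-h light) and 2.54 (12-h light) in WT larvae. In DKO larvae the values were 2.12, 2.38 and 2.65, and in TKO larvae 2.17, 2.30 and 2.32. The 3 arrays at 12-h light did not overlap with the 3 dark arrays, and neither did those at 3-h light. The share of all probes that separate in this way was not counted.

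Probe A_15_P565302 of the same gene read 0.07, 0.11 and 0.39 in WT larvae, -0.04, 0.09 and 0.47 in DKO larvae, and 0.00, 0.14 and 0.22 in TKO larvae. Probe A_15_P629201 read 0.96, 1.19 and 1.35 in WT, 0.92, 1.1 and 1.31 in DKO, and 1.21, 1.27 and 1.33 in TKO larvae. Both were higher on every 12-h light array than on any dark array, again with no share of all probes counted. The TKO dark array of the second was close to its lit arrays. For the largest of all these ratios, A_15_P664036 in DKO larvae at 12-h light, the log2 ratio was 0.53, well under 2-fold.

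In limma across the 9 arrays, 5 of the 12 probes differed between 12-h light and darkness, against 24.1% of all probes tested. Among them were 3 cdkn1bb probes that rose, A_15_P565302 by 0.35 ± 0.089 (adjusted p = 0.0328, limma), A_15_P664036 by 0.34 ± 0.094 (adjusted p = 0.0427) and A_15_P629201 by 0.30 ± 0.085 (adjusted p = 0.0443). The fourth probe, A_15_P736946, had a difference of 0.23 ± 0.093 (adjusted p = 0.107, limma). The median difference of all probes was 0.09. When arrays were scaled to their median in place of the 75th percentile, none of the 3 kept its call. In the fit without the TKO dark array the 3 differences were 0.38, 0.40 and 0.37 in the same order, all called, and that of the fourth was 0.32 (adjusted p = 0.0247, limma). Each of the 3 calls was lost in 8 to 10 of 17 alternatives, most of them fits without 1 of the other arrays.

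ccnd1 codes for cyclin D1, which activates CDK4 and CDK6 in G1. Probe A_15_P117613 read -2.58, -2.69 and -2.86 in darkness, 3-h light and 12-h light in WT larvae, -2.59, -2.77 and -2.93 in DKO larvae, and -2.48, -2.81 and -2.89 in TKO larvae. All 6 light arrays were below all 3 dark arrays, and how many of all probes do so was not counted. At 12-h light this probe fell by 0.34 ± 0.078 on the log2 scale (adjusted p = 0.0244, limma), or 1.27-fold. The difference was -0.30 without the TKO dark array (adjusted p = 0.0231, limma). The call was lost in 6 of 17 alternatives, those without WT dark, WT 3-h light, WT 12-h light, DKO dark, DKO 12-h light or TKO 12-h light.

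The other ccnd1 probes were not called for light. A_15_P132186, the brightest, read 3.39, 3.18 and 3.09 in WT larvae, 3.34, 3.08 and 3.09 in DKO larvae and 3.00, 3.09 and 2.92 in TKO larvae. A_15_P152542 had 0.14, -0.13 and -0.25 in WT, 0.12, -0.20 and -0.19 in DKO, and -0.30, -0.09 and -0.28 in TKO larvae. In both probes the WT and DKO dark arrays were the highest, and the TKO dark array was among the lowest. Their 12-h light differences were -0.21 and -0.22 (adjusted p = 0.131 and 0.191, limma). The 2 differences without the TKO dark array were -0.29 and -0.37 (adjusted p = 0.0293 and 0.0181, limma).

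cdc25b codes for the phosphatase that activates CDK1 at the start of mitosis. Its dimmest probe, A_15_P413270, with processed signals between 20.5 and 35.8, read -4.38, -4.74 and -4.76 in WT larvae, -4.15, -4.68 and -4.74 in DKO larvae, and -4.45, -4.73 and -4.92 in TKO larvae. All 6 light arrays lay below all 3 dark arrays, a separation not counted over all probes. It fell by 0.48 ± 0.085 at 12-h light (adjusted p = 0.0115, limma). The 12-h difference was -0.51 without the TKO dark array (adjusted p = 0.0115, limma), and the call was lost in 2 of 17 alternatives, those without DKO 12-h light or TKO 12-h light. At 3-h light the probe fell by 0.39 ± 0.085 (adjusted p = 0.0418, limma), a call that was lost in 12 of 17 alternatives, among them the deposited table, no filter and the removal of any array other than TKO dark. It was the only 1 of the 12 probes called at 3-h light, where 8.4% of all probes were called. With normexp and quantile normalization the differences of this dim probe were smaller, at -0.19 (12-h light) and -0.14 (3-h light).

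Of the other cdc25b probes, A_15_P197326 read -1.62, -1.87 and -2.02 in WT, -1.56, -1.87 and -1.83 in DKO, and -1.79, -1.68 and -1.79 in TKO larvae. A_15_P655751 read -3.41, -3.55 and -3.67 in WT, -3.45, -3.75 and -3.72 in DKO, and -3.59, -3.42 and -3.59 in TKO larvae. Both were below their own dark array on all 4 light arrays of WT and DKO larvae and on none of the 2 of TKO larvae. Their 12-h light differences were -0.23 and -0.18 and were not called (adjusted p = 0.158 and 0.229, limma). Without the TKO dark array they were -0.35 and -0.29 (adjusted p = 0.0201 and 0.0376, limma).

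**Figure D3:**
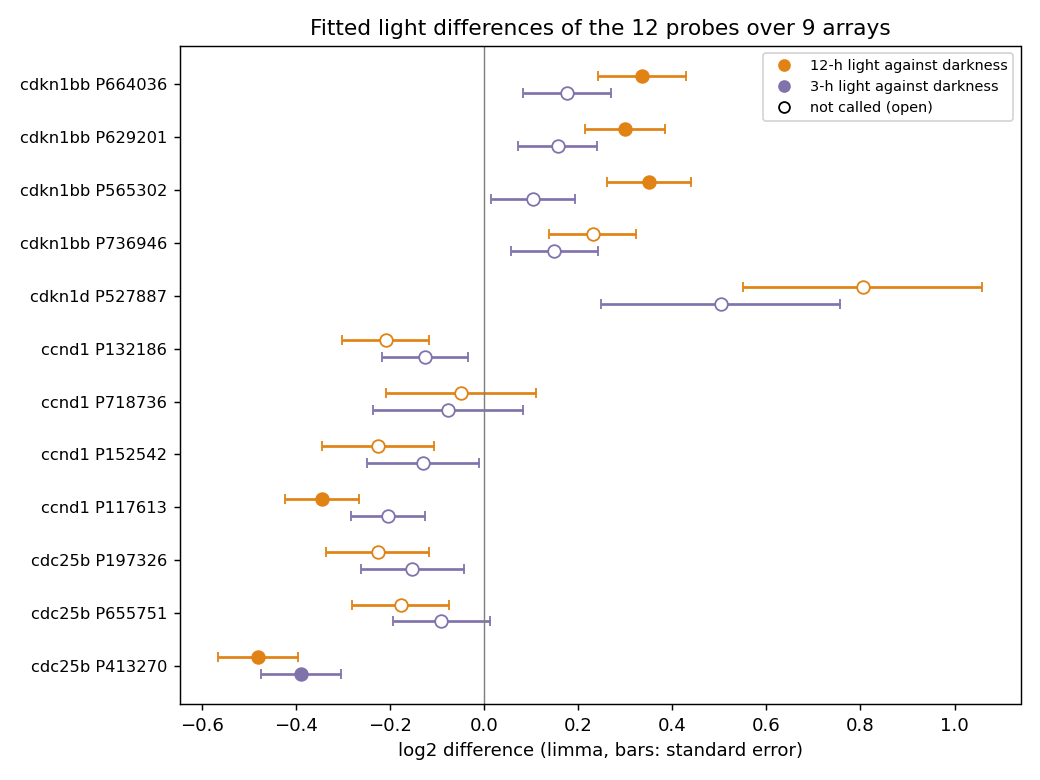
Log2 difference from darkness (x axis, with standard errors) of the 12 probes (y axis) in limma over the 9 arrays, at 12-h light (orange) and 3-h light (purple), filled where called. The 4 cdkn1bb probes lie above 0, from 0.23 to 0.35 at 12-h light, and the cdc25b probes below it, from -0.48 to -0.18.

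Without the TKO dark array, 11 of the 12 probes were called at 12-h light, with 5 higher and 6 lower, against 27% of all probes in the same fit. This fit has dark arrays of WT and DKO larvae only. It leaves out the TKO ratios to darkness, several of which went the other way, and does not check the light differences across genotypes. The exception was ccnd1 probe A_15_P718736, at 0.17 (adjusted p = 0.124, limma). At 3-h light 2 of 12 were called, cdkn1d and cdc25b probe A_15_P413270, against 11.2% of all probes. Between 12-h and 3-h light none of the 12 was called with all 9 arrays, against 0.445% of all probes, and their differences lay between -0.14 and 0.30 on the log2 scale. At an unadjusted p under 0.05 there was 1 of 12, cdkn1bb probe A_15_P565302, with 0.25 (limma). Array weights gave 0 calls as well.

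Between genotypes, 10 of the 12 probes were called for neither mutant, and the other 2 were 1 ccnd1 and 1 cdkn1bb probe that stood apart from the other probes of the same gene. ccnd1 probe A_15_P718736 read -0.32, -0.12 and -0.20 in WT larvae under darkness, 3-h light and 12-h light. In DKO larvae it read 0.49, 0.58 and 0.71, and in TKO larvae 0.99, 0.47 and 0.50. All 6 mutant arrays were above all 3 WT arrays, a separation whose share among all probes was not counted.

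This probe was higher than in WT by 0.81 ± 0.16 in DKO larvae (adjusted p = 0.0189, limma), 1 call of 12 probes against 12.9% of all probes. The difference stayed at 0.81 without the TKO dark array (adjusted p = 0.000914, limma), and the call was lost without WT dark, WT 12-h light, DKO 3-h light or DKO 12-h light. In TKO larvae it was higher by 0.87 ± 0.16 (adjusted p = 0.0116, limma), or by 0.64 without the TKO dark array (adjusted p = 0.00413, limma), and this call was lost without WT dark. The other 3 ccnd1 probes differed from WT by -0.05 to -0.01 in DKO larvae and by -0.21 to -0.01 in TKO larvae, and none was called. Slide and genotype cannot be told apart here, and the 4 probes are annotated with the same transcript.

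cdkn1bb probe A_15_P736946 read -1.28, -1.11 and -0.96 in WT larvae, -0.99, -0.74 and -0.63 in DKO larvae and -0.69, -0.67 and -0.68 in TKO larvae. All 3 TKO arrays exceeded all 3 WT arrays, a separation whose share among all probes was not counted. In DKO larvae the dark array was just under the WT array of 12-h light. It was higher in TKO than in WT larvae by 0.44 ± 0.093 (adjusted p = 0.0184, limma), so that 2 of the 12 probes were called for TKO against WT, where 24.3% of all probes were. The difference was 0.35 without the TKO dark array (adjusted p = 0.0188, limma), and the call was lost without any 1 of the WT arrays, without TKO 3-h light and with no term for lighting. In DKO larvae the difference was 0.33 ± 0.093 (adjusted p = 0.0629, limma). The other 3 cdkn1bb probes differed from WT by -0.06 to 0.02 in DKO larvae and by -0.10 to 0.10 in TKO larvae.

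**Figure D4:**
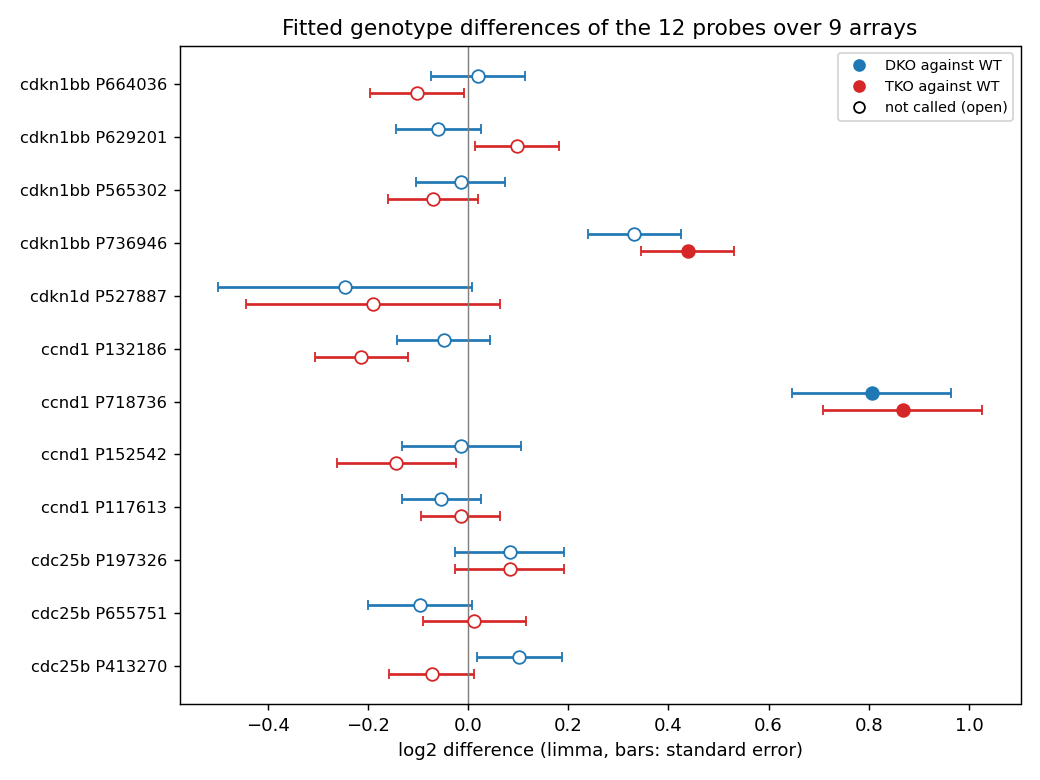
Log2 difference from WT larvae (x axis, with standard errors) of the 12 probes (y axis) in limma over the 9 arrays, for DKO (blue) and TKO (red) larvae, filled where called. ccnd1 probe A_15_P718736 lies at 0.81 and 0.87 and the other ccnd1 probes between -0.21 and -0.01.

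Without the TKO dark array, 2 of 12 probes were called for DKO against WT, against 27.9% of all probes, as cdkn1bb probe A_15_P736946 joined (adjusted p = 0.0129, limma). For TKO against WT, 3 of 12 were called, against 26.9% of all probes. The third was cdkn1d, lower by a log2 difference of -0.58 ± 0.083 (adjusted p = 0.00854, limma) over what were then the lit TKO arrays. With all 9 arrays cdkn1d differed from WT by -0.25 in DKO and -0.19 in TKO larvae (adjusted p = 0.586 and 0.599, limma). Under single lightings the log2 difference of TKO from WT larvae was 0.58 (darkness), -0.43 (3-h light) and -0.72 (12-h light), with 1 array each.

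Between TKO and DKO larvae none of the 12 probes was called, against 1.34% of all probes, with differences from -0.17 to 0.16 on the log2 scale. None of 12 was called for the light response of DKO against WT larvae or of TKO against WT larvae, where 0% of all probes were called in both by limma. At an unadjusted p under 0.05 there were 1280 and 9268 probes of the whole array in these 2 tests, and 0 and 3 of the members. The 3 were cdkn1d, ccnd1 probe A_15_P718736 with -0.67 (adjusted p = 0.103, limma) and ccnd1 probe A_15_P152542 with 0.45 (adjusted p = 0.197, limma).

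Related genes were counted from lists of cell-cycle and clock genes. Of the other cdkn genes, 8 probes of 5 genes were tested at 12-h light. Of these, 3 were called, all lower, with a list median of -0.30 against 0.09 for all probes. The share of all probes called in this contrast was 24.1%, and the shares of the lists below ranged from 31% to 37.5% except for the genes of entry into mitosis, at 81.8%. The called probes were 2 of cdkn3, a phosphatase that acts on CDKs, at -0.84 and -0.87, and that of cdkn1ca, a p57-type inhibitor, at -0.66. cdkn1ba, the second p27-type gene of zebrafish, was at 0.15 and was not called (adjusted p = 0.348, limma). The fitted values of both p27-type genes and of p20 were above 0, though those of cdkn1ba and of p20 were not called. All other probes of this list were below 0, including those of cdkn2c and cdkn2aip, which were not called. cdkn2aip does not code for a CDK inhibitor, and cdkn3 codes for a phosphatase. The count and median are thus those of a mixed list, not of CDK inhibitors alone.

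Of the G1 cyclins, kinases and pocket proteins, 7 of 21 probes were called, all lower, with a median of -0.38. cdk2, the kinase that cyclin E activates at the G1/S transition, was lower by a log2 difference of -1.21 and -1.25 at its 2 probes. cdk4, the partner of cyclin D1, was at -0.09 and cdk6 at -0.19, and neither was called (adjusted p = 0.45 and 0.36, limma). Among the genes of entry into mitosis, 18 of 22 probes were called, 16 lower and 2 higher, with a median of -1.04. The 2 that rose were pkmyt1, a kinase that restrains CDK1, at 0.33 and 0.32. The other pkmyt1 probes were at 0.18 and 0.25 and were not called (adjusted p = 0.164 and 0.0543, limma). Without the TKO dark array 1 probe of this list was called higher. The other called probes of this list were those of cdk1, ccna2, ccnb1, ccnb2, plk1, chek1 and chek2. Of these, the checkpoint kinases chek1 and chek2, which also restrain entry into mitosis, were at -1.10 and -1.06.

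Of the p53 and growth-arrest genes, 9 of 29 probes were called, all higher, with a median of 0.10. Of the clock genes, 11 of 32 were called, 8 higher and 3 lower, with a median of 0.22. Leaving out the TKO dark array, the counts called were 3 of 8 for the other cdkn genes, 8 of 21 for the G1 genes and 16 of 22 for entry into mitosis. They were 13 of 29 for the p53 and growth-arrest genes and 12 of 32 for the clock genes, where 27% of all probes were called. The 3 probes of all these lists with the smallest p were those of per2, a light-induced repressor of the clock, at 4.01 ± 0.18 (adjusted p = 0.000289, limma), cry1a, its light-induced partner, at 2.15 ± 0.16 (adjusted p = 0.00132, limma), and sesn1, a p53 target, at 1.14 ± 0.093 (adjusted p = 0.00158, limma). These values are over all 3 genotypes, of which DKO and TKO larvae carry mutated per2 and cry1a.

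**Figure D5:**
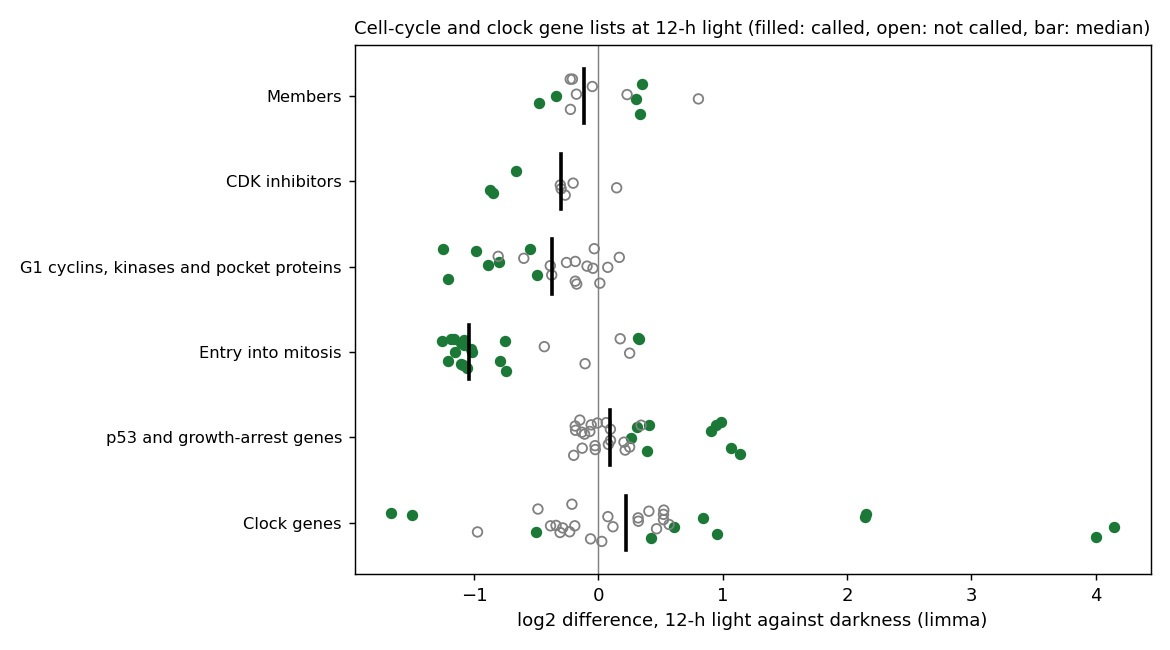
Log2 difference of 12-h light from darkness (x axis, limma over 9 arrays) for the 12 probes of the members and for the probes of 5 gene lists (y axis), filled where called, with a bar at each list's median. The members' median is -0.11 and that of the genes of entry into mitosis -1.04.

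For DKO against WT larvae, 0 of 8 probes of the other cdkn genes were called by limma, and 2 of 21 of the G1 genes. The counts were 3 of 22 for the genes of entry into mitosis, 3 of 29 for the p53 and growth-arrest genes and 2 of 32 for the clock genes. Their shares, from 0% to 13.6%, stand beside 12.9% of all probes in this contrast. The counts without the TKO dark array were 2, 3, 3, 8 and 6 in the same order, beside 27.9% of all probes. The 3 with the smallest p were ccnd3, which codes for cyclin D3, at 1.13 ± 0.087 (adjusted p = 0.00049, limma), e2f3, a transcription factor of S-phase genes, at 0.50 ± 0.086 (adjusted p = 0.0116, limma) and btg2, an antiproliferative p53 target, at 0.55 ± 0.10 (adjusted p = 0.0154, limma). In each of these genes only that 1 probe was called. The second ccnd3 probe was at 0.21, the second e2f3 probe at 0.05 and the other btg2 probes at 0.26 and 0.17 (adjusted p from 0.306 to 0.946, limma).

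Markers of cycling cells moved with light in all 3 genotypes. Of all probes, 8.4% were called at 3-h light and 24.1% at 12-h light. All 14 probes of the 6 of 8 listed markers that were paired (for example pcna and mki67) were called lower at both 3-h and 12-h light, and each of the 6 genes had a probe well above background on all 9 arrays. Their summed level, relative to the 75th percentile, was 21.4 to 23.0 in the 3 dark arrays, 10.3 to 12.4 at 3-h light and 8.11 to 11.8 at 12-h light. In WT larvae it was 48.0% of the dark level after 3-h light and 37.8% after 12-h light. In DKO larvae it was 53.9% and 40.9%, and in TKO larvae 56.1% and 53.3%. In whole larvae, fewer cycling cells and less RNA per cell cannot be told apart, and the part of these markers in the members' values was not tested.

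Blood markers also moved with light. The marker counts that follow stand beside 24.1% of all probes called at 12-h light. The 6 probes of 2 of 3 listed blood markers were all lower at 12-h light, and their summed level was 217 to 302 in darkness and 109 to 121 at 12-h light. Exocrine pancreas markers were higher at 12-h light in 4 of 8 probes. Their summed level was 119.7% of the dark one in WT, 126.6% in DKO and 95.2% in TKO larvae. Liver markers were lower in 7 of 11 probes, all of them of tfa. Retina markers were lower in 5 of 13 probes, with a summed level of 78.9% to 81.0% of the dark one in the 3 genotypes, and neuron markers were lower in 3 of 11. Lens markers were higher in 1 of 7. The neuron and lens shares, 27.3% and 14.3%, were near or below that of all probes. Skeletal muscle, skin and immune cell markers were called in 0 probes at 12-h light by limma, with 10, 17 and 6 probes tested. In the fit without the TKO dark array, 1 muscle probe was called, and the exocrine pancreas, liver, retina and neuron counts were 8, 9, 6 and 4. Of all probes 27% were called in that fit. Every paired marker gene had a probe well above background on all 9 arrays, and their part in the members' values was not tested.

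Some tissue markers were called between genotypes as well, where 12.9% of all probes were called for DKO and 24.3% for TKO larvae. Lens markers were lower than in WT in 4 of 7 probes in both DKO and TKO larvae. Skin markers were lower in 5 and 7 of 17 and exocrine pancreas markers in 2 and 4 of 8. The lens calls were all of 1 gene, and the skin calls of 1 gene in DKO and 2 in TKO larvae. The summed lens level in TKO larvae was above WT in darkness (353 against 327), and below it at 3-h light (295 against 347) and 12-h light (270 against 338). Liver markers were higher in 3 of 11 probes in both DKO and TKO larvae, all of 1 gene. This share, 27.3%, is for TKO larvae near that of all probes. Retina markers were lower in 3 of 13 probes in TKO larvae (23.1%). Neuron markers were called in 1 of 11 probes in DKO (9.09%) and 3 in TKO larvae (27.3%). Cycling-cell markers were higher in 2 of 14 in TKO larvae (14.3%). The shares of these 3 lists were near or below those of all probes. In the fit without the TKO dark array, liver markers were called in 9 of 11 probes in DKO larvae, 7 higher and 2 lower. In TKO larvae 7 were called, 5 higher and 2 lower. In DKO and TKO larvae, exocrine pancreas markers were called lower in 2 and 6 of 8 probes and muscle markers in 1 and 4 of 10. Cycling-cell markers were called higher in 1 and 6 of 14, and blood markers in 1 and 2 of 6. Lens markers were called lower in 5 and 5 of 7, and skin markers in 7 and 6 of 17. Retina markers were called in 3 and 4 of 13, 1 of them higher in each mutant. Of all probes, 27.9% were called for DKO and 26.9% for TKO larvae in that fit. The part of these markers in the genotype differences of ccnd1 and cdkn1bb was not tested.

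The array holds other genes whose pattern over the 9 arrays was close to that of a member, among 23839 probes with a symbol that were well above background on all arrays. For cdkn1d the 3 closest were etfbkmt, ufd1l and fbp1b, with Pearson's r of 0.989, 0.985 and 0.979. For cdkn1bb probe A_15_P664036 they were fam219b, abraxas2 and glb1l, with 0.959, 0.956 and 0.954. For ccnd1 probe A_15_P132186 the closest were hnrnpub and tmed1b, with 0.980 and 0.969. For cdc25b probe A_15_P197326 they were ell2, rhogb and dusp29, with 0.983, 0.974 and 0.962.

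These correlations are descriptions over 9 arrays that share slides and lightings, chosen as the highest of many. Without the TKO dark array, the closest genes to cdkn1d were btg1, calcoco2 and kat5a, with r of 0.993, 0.992 and 0.991, and none of the former 3 remained among them. For ccnd1 hnrnpub remained among the 3 closest, and for cdc25b ell2 did, while for cdkn1bb none remained.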

How the data were processed

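Total RNA of whole larvae was labelled with Cy3 on 9 arrays. The deposited intensities are those of Agilent Feature Extraction 11.5.1.1, per the file headers, background-subtracted and detrended but not normalized between arrays. The authors' median intensities of spots and of local background, their deposited table of intensities scaled by 1 constant per array, and deposited flags (other values, 0 or 1) were used for alternatives and filters. The paper's methods name another software.

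Log2 of the intensity minus the array's 75th percentile over non-control spots was computed here, spots of a probe were averaged, and 1 to 8 outlier spots per array were left out. limma 3.58.1 in R 4.3.3 fitted genotype and lighting (4 residual degrees of freedom) to the 39138 probes that passed a filter (well above background on 3 or more of 9 arrays), with Benjamini-Hochberg adjustment over all of them and calls at 0.05. Differences in light response pooled 3-h and 12-h light and compared their mean with the single dark array of each genotype (3 residual degrees of freedom). The residual spread of this fit came only from differences between 3-h and 12-h light within genotypes. The dark arrays added nothing to it, so its intervals and p-values leave out the spread between dark arrays. Figures and counts used Python 3.11.15. Simulated data with known changes were also run through these fits, and their outcome is not reported here. They had independent noise and no outlying array, slide or position effect, so they do not bear on such effects.

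Members and lists were chosen with earlier results of these data known, so none of them is independent support. The genes named are the members at every probe, the 3 closest genes to each member's brightest probe (1 of those for ccnd1 is not reported here), and the 3 probes of the related lists with the smallest p among those called, at 12-h light and for DKO against WT. Other named genes were chosen after their values were seen. Probe names refer to the array's own annotation, and symbols to RefSeq. No probe or promoter sequence was used here. P-values measure only the spread between these arrays.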

Additional observations from a re-analysis of the deposited data

Results flagged for a closer look

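In 5 of the 12 probes both lit TKO arrays moved one way from their dark array while both lit arrays of WT and of DKO larvae moved the other way. How many of all probes did so was not counted, so this count has no background beside it. The differences below are the mean log2 light ratio of TKO minus that of the other genotype. For cdkn1d the difference was -1.15 from WT and -1.17 from DKO larvae. For ccnd1 probe A_15_P718736 it was -0.67 from both, and for ccnd1 probe A_15_P152542 it was 0.45 from WT and 0.43 from DKO larvae. For cdc25b probe A_15_P197326 the values were 0.39 and 0.36, and for A_15_P655751 0.29 and 0.37.

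All of these differences share the TKO dark array, which correlated less with the other arrays than they did with each other. None of the 5 differences from WT passed limma's test across all probes, with adjusted p between 0.103 and 0.341, and the differences from DKO larvae were not tested. The TKO light ratios of cdkn1d were -0.19 and -0.05 and those of the 2 cdc25b probes 0.0012 to 0.17, against a spot spread of 0.151. At 12-h light the TKO ratios of ccnd1 probe A_15_P152542 and of the 2 cdc25b probes were 0.020, 0.0070 and 0.0012. The median ratio over 36497 probes was 0.145 there, so relative to the typical probe these were lower. For the light response of TKO against WT larvae, 9268 of 39138 probes had an unadjusted p under 0.05 (limma), and 3 of the 12 did. With the DKO dark array as the reference of the lit TKO arrays, ccnd1 probe A_15_P152542 had log2 ratios of -0.20 and -0.39 and cdc25b probe A_15_P197326 -0.12 and -0.23, the direction seen in WT and DKO larvae. cdkn1d had 0.65 and 0.79, also their direction. ccnd1 probe A_15_P718736 had -0.021 and 0.017, and cdc25b probe A_15_P655751 0.030 and -0.14.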

How the results depend on the processing

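No called difference of a member changed sign under any alternative run, whereas 38 of the 87 differences that were not called did under at least one. None of the 9 calls of members held under every alternative, and of the differences that were not called 71 stayed so throughout. With all 9 arrays 5 members were called at 12-h light. The count was 2 under median scaling, 3 with no filter and 11 with array weights, whose fit stopped before its tolerance. Over all probes the counts were 9450, 8924, 9199 and 14750 in the same order. No filter tested 43596 probes and the other settings 39138. At 3-h light the member count of 1 became 0 with the deposited table, normexp with quantile normalization, no filter, and trend and robust options. It was 7 with array weights. Over all probes the counts were 2362, 4039, 1793, 4664 and 14992 in the same order, against 3289 in the main fit. For DKO against WT 2 members were called with normexp, trend and robust options, and array weights, beside 7169, 5349 and 11682 of all probes. For TKO against WT 1 member was called with no term for lighting and 4 with array weights, beside 3478 and 17105 of all probes. The light response of TKO against WT gained 1 call, ccnd1 probe A_15_P718736, with normexp and with trend and robust options. These settings called 1504 and 1878 of all probes. Among single-array ratios, cdkn1d reached 1.5-fold at 3-h light in WT and DKO larvae (1 probe each), and 2 probes did at 12-h light in DKO larvae. Normexp with quantile normalization and a 3-fold threshold left 0 at 12-h light in both.

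Leaving out 1 array at a time gave 0 to 11 members at 12-h light. The counts were 0 without DKO 12-h light or TKO 12-h light, where 1994 and 3228 of all 39138 probes were called. They were 1 without WT dark, WT 3-h light, WT 12-h light or DKO dark, beside 5301, 5310, 4546 and 6812 of all probes. With 7162, 7593 and 10572 of all probes called, they were 2 without DKO 3-h light, 3 without TKO 3-h light and 11 without TKO dark. At 3-h light the member counts were 0 to 2, with 2 without TKO dark and 0 without any other array. Over all probes 4377 were called without TKO dark and 0 to 1476 without any other array. Without WT 3-h light or TKO 3-h light 0 of all probes were called, so the members' count could only be 0. For DKO against WT the member counts were 0 to 2. They were 0 without WT dark, WT 12-h light, DKO 3-h light or DKO 12-h light, beside 2225 to 3043 of all probes. For TKO against WT the member counts were 0 to 3, with 0 without WT dark, beside 3943 of all probes. They were 1 without WT 3-h light, WT 12-h light or TKO 3-h light, beside 3248 to 5532 of all probes. The cdkn1d difference at 12-h light lay between 0.48 and 1.19 over the alternatives.

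Over all probes, 9450 were called at 12-h light, and from 1994 (without DKO 12-h light) to 14750 (array weights). The counts were 3289 (0 to 14992) at 3-h light, 174 (17 to 1534) for 12-h against 3-h light, 5062 (2225 to 11682) for DKO and 9529 (3248 to 17105) for TKO against WT, 523 (167 to 1660) for TKO against DKO, and 0 (0 to 1878) for the light response of TKO. The split of 5665 higher and 3785 lower at 12-h light was 4442 and 4482 under median scaling. At 3-h light it was 1861 and 1428, or 1286 and 1789. For TKO against WT it was 3825 and 5704, or 4721 and 4090. For DKO against WT it was 3274 and 1788, or 3732 and 3437 with normexp. The median of all probes at 12-h light was 0.09, or 0.12 with the deposited table and 0.04 with median scaling. The genotype term already blocks the light comparisons by slide, and the labels carry no replicate numbers for another pairing. The list counts without the TKO dark array were added after seeing the data. The number of arrays limits the precision.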
